A study of Mus musculus with 10 samples.

Results

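The cytosolic ribosomal protein genes of mouse epidermis were compared between skin without and with integrin-linked kinase (ILK), a scaffold protein of cell adhesions. A gene was taken as a member when a probe set of the array carried its symbol alone and that symbol was Rpl or Rps followed by a number, or Rplp0, Rplp1 or Rplp2, with pseudogene names and the Rps6k kinases left out. Of 19938 genes with a probe set of their own, 60 met this rule, 38 of the large and 22 of the small ribosomal subunit, and each was represented by its probe set with the highest mean over the 10 arrays. A further 17 ribosomal protein genes had only probe sets that listed several symbols, and these were not named from them. RefSeq listed 59 of the 60 as protein coding and Rps4l as a pseudogene, and the 60 genes were spread over 17 chromosomes, with 3 on the X chromosome.

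The samples were epidermis freed from skin with dispase, taken from pups 3 days old, with 1 Affymetrix GeneChip Mouse Gene 1.0 ST array for each of 10 mice. The 5 ILK-deficient mice (K14Cre; Ilk f/f) carried the KRT14-cre transgene and 2 floxed Ilk alleles. The 5 ILK-expressing mice (K14Cre; Ilk f/+) carried the same transgene and 1 floxed allele, so both groups expressed Cre recombinase from the keratin 14 promoter, which is active in basal keratinocytes and in the epithelium of hair follicles. The animals were described as littermates, with no record of which pups shared a litter.

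Ribosomes are built in the nucleolus from ribosomal RNA and, for most ribosomal proteins, a single copy of each, so the cell makes these proteins in matched amounts. Many ribosomal protein mRNAs begin with a tract of pyrimidines, the TOP motif, through which the kinase complex mTORC1 and the RNA-binding protein Larp1 set how well they are translated. In skin, mouse mutants of Rps19 and Rps20 become dark because p53 rises in keratinocytes and raises Kit ligand, a growth factor for melanocytes, and the mRNAs of ribosomal proteins are also widely used as reference transcripts in quantitative PCR.

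A feature that many members had in common, and that the rule did not use, is shown here for 8 of the genes described below. A pyrimidine tract was searched as an unbroken run of at least 8 C or T letters on the gene's strand, from 50 bases before to 50 bases after a start annotated by RefSeq. It was found in 38 of the 48 members that had a promoter entry (79.2%), against 39.2% of 17492 protein-coding genes. Each window below has 28 bases, is written 5′ to 3′ on the gene's strand with RefSeq coordinates of build GRCm38.p6, and has in capitals the longest tract within the searched bases (the first of 2 of equal length in Rps27l). Where RefSeq listed several starts, the first with a tract is shown.
Rpl27 (chr11:101442195-101442222, + strand): catcctcgCTCCTCCCTCCacacgccgg
Rpl34 (chr3:130730394-130730421, - strand): tgacgcgccgCCTTCCCTgacgtacttc
Rpl9 (chr5:65391384-65391411, - strand): cgaaagacgTTCTCTCTTTgccccatct
Rpl5 (chr5:107900499-107900526, + strand): ctacagccaCTCTTTCTCacgtcgcttg
Rps6 (chr4:86857350-86857377, - strand): gaagtcgggCCTCTTTTTCgtgacgcct
Rps19 (chr7:24884614-24884641, + strand): cccgggaaaccccgtcgTTCCCTTTCCC
Rps25 (chr9:44407685-44407712, + strand): caccgggCTTCCTTTTTTTCCgacatct
Rps27l (chr9:66946055-66946082, + strand): ccgcctccaCTCCTCTCCactcctcccc
The 8 tracts ran from 8 bases in Rpl34 to 14 bases in Rps25. Relative to the start, their first bases were at -42 (Rpl27), -22 (Rps25 and Rps27l), -20 (Rpl5), -13 (Rpl34), -1 (Rps6), 30 (Rpl9) and 40 (Rps19). A tract found in this search need not lie at the first base of the mRNA, so it was not taken as a TOP motif. The letters CGGAAG, searched on both strands of the 300-base promoters (250 bases before the start to 50 after it), were present in 32 of the 48 members (66.7%) against 23.5% of all protein-coding genes. A match is a description of the letters and not evidence of a working site. The 12 members without an entry were Rpl7, Rpl8, Rpl21, Rpl23a, Rpl29, Rpl30, Rpl36, Rplp1, Rps4l, Rps14, Rps20 and Rps29.

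No cytosolic ribosomal protein gene passed the test between the genotypes. Expression values are log2 intensities as deposited, and a difference is the mean of the ILK-deficient arrays minus that of the ILK-expressing arrays on this log2 scale. By limma, with Benjamini-Hochberg adjustment over the 32046 probe sets that reached a linear value of 50 on at least 5 arrays, 0 of 38 large subunit and 0 of 22 small subunit genes had an adjusted p under 0.05 in either direction. Over all probe sets tested, 3.78% passed, 2.81% higher and 0.970% lower in ILK-deficient epidermis. The methods' analysis of variance with the same adjustment also called 0 members. At an unadjusted limma p under 0.05, 4 members were higher in ILK-deficient epidermis (Rps13, Rps3a1, Rpl5 and Rpl32l, the last named after its value was seen) and 0 were lower, against 10.2% and 5.65% of all probe sets tested. All 60 members entered the test, and 57 of them lay at or above the linear value of 50 on all 10 arrays.

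The median difference was 0.03 for the large subunit and 0.03 for the small subunit, against 0.00 for all probe sets tested. Large subunit genes ran from -0.19 to 0.36, with 25 above 0 and 13 below, and small subunit genes from -0.20 to 0.39, with 12 above 0 and 10 below. The absolute difference was under 0.1 for 45 of the 60 members (75%), compared with 53.7% of all probe sets. The 95% interval of the difference lay wholly within a 1.5-fold change in either direction for 58 of 60 members, the exceptions being Rpl34 and Rps3a1, and within 1.2-fold for 38 of 60. The same shares over all probe sets tested were 82.6% and 35%. Within a genotype, the SD of a member was 0.103 at the median (0.0961 for the large and 0.134 for the small subunit), compared with 0.156 over all probe sets. Since each sample was bulk epidermis, fewer cells of a type and less RNA per cell cannot be told apart in these values.

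**Figure D1:**
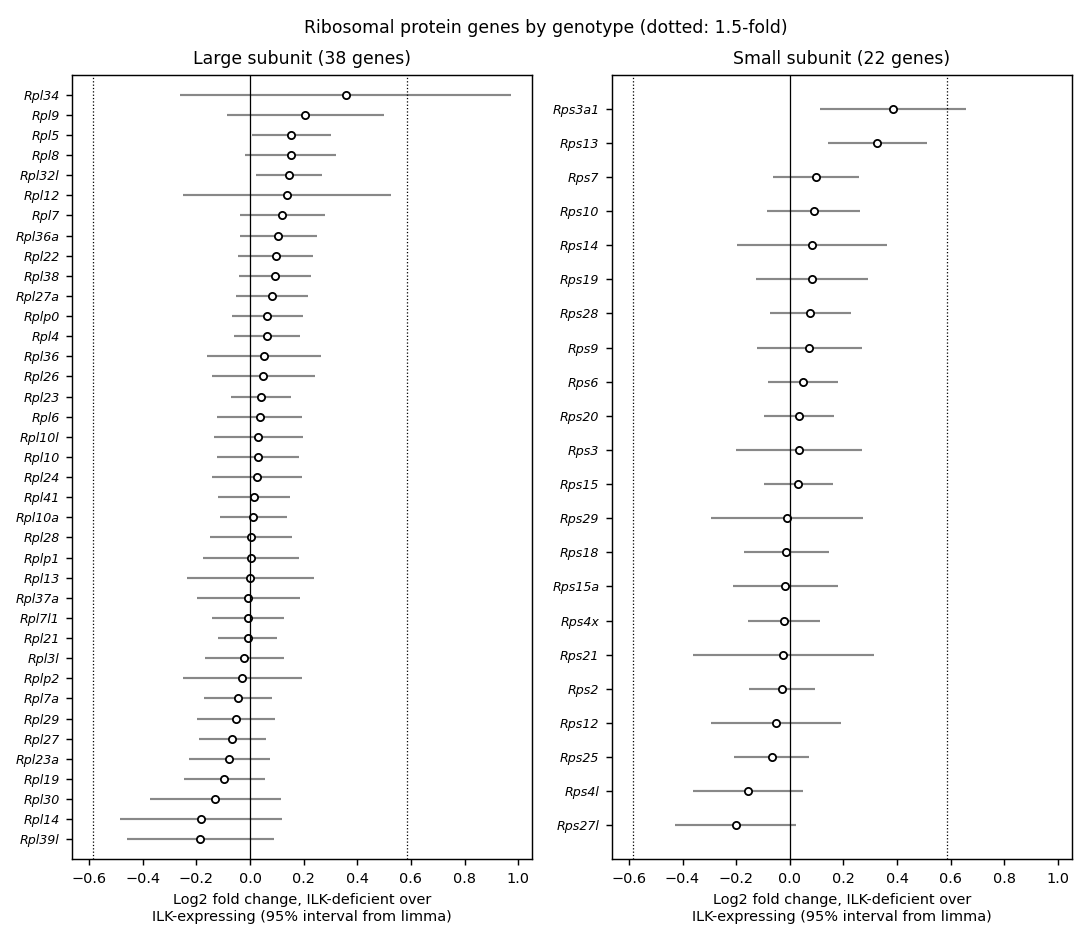
Difference between genotypes for each of the 38 large and 22 small subunit genes (x axis, log2 fold change of ILK-deficient over ILK-expressing epidermis; circles, limma estimate from 5 against 5 arrays; bars, 95% interval; dotted lines, 1.5-fold). The circles ran from -0.19 to 0.36 in the large and from -0.20 to 0.39 in the small subunit, and the intervals of Rpl34 and Rps3a1 crossed a dotted line.

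Rps13, a protein that binds rRNA in the body of the small subunit, was the member nearest to the threshold. Its log2 values were 11.35, 11.34, 11.40, 11.32 and 11.48 in ILK-deficient replicates 1 to 5, and 10.99, 10.83, 11.17, 11.01 and 11.26 in the ILK-expressing replicates. Every ILK-deficient value lay above every ILK-expressing value, which held for no other member, whereas 6.33% of all probe sets tested did not overlap, 4.37% with the ILK-deficient arrays higher and 1.96% with them lower. The difference was 0.33 (SE 0.0831), or 1.25-fold, with a limma adjusted p = 0.0590 and a two-sided exact permutation p = 0.00794, the smallest that 5 against 5 arrays can give. The call depended on the processing: the adjusted p ran from 0.0209 to 0.146 over 23 alternatives and passed the threshold in 6 of them, among them without ILK-expressing replicate 5, where it was 0.0308. The other probe sets named Rps13 gave differences of 0.26 and 0.26.

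Rps3a1, the mouse gene for the small subunit protein that lies near the exit of the mRNA channel, had the largest difference of the 60 members. Its log2 values were 10.69, 11.02, 10.47, 10.69 and 10.83 in the ILK-deficient and 10.19, 10.36, 10.30, 10.72 and 10.21 in the ILK-expressing replicates. ILK-expressing replicate 4 alone reached into the ILK-deficient range. The difference was 0.39 (SE 0.123), 1.31-fold, and did not pass the test (limma adjusted p = 0.127, exact permutation p = 0.0317 before adjustment).

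Rps7, which can bind the p53 ligase Mdm2 when it is free of the ribosome, was the third of the small subunit genes by the size of a positive difference. It differed by 0.10 (limma adjusted p = 0.630), with values between 12.58 and 12.88 in ILK-deficient and between 12.61 and 12.81 in ILK-expressing epidermis. Rps6, the small subunit protein phosphorylated by the S6 kinases downstream of mTORC1, had values of 13.89, 13.90, 13.85, 13.89 and 13.94 in ILK-deficient and 13.96, 13.75, 13.90, 13.87 and 13.75 in ILK-expressing epidermis. The Rps6 groups overlapped throughout, and the difference was 0.05 (SE 0.0585, limma adjusted p = 0.816).

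The genes behind the dark skin mutants did not pass the test. Rps19, which matures the small subunit precursor and is the gene most often mutated in Diamond-Blackfan anaemia, had values of 9.82, 10.12, 10.17, 10.22 and 10.19 in ILK-deficient and 9.96, 9.89, 10.26, 10.02 and 9.97 in ILK-expressing replicates. ILK-deficient replicate 1 was the lowest of the 10 arrays and ILK-expressing replicate 3 the highest, so each group covered most of the range of the other. The Rps19 difference was 0.08 with a 95% interval of -0.13 to 0.29 (limma adjusted p = 0.811). For Rps20, a protein of the small subunit head, it was 0.03 with an interval of -0.09 to 0.16 (limma adjusted p = 0.890). Over the 7 of 8 listed genes for proteins of the mRNA channel and head that were measured on their own, the median was 0.03, and over the 8 of 14 listed Diamond-Blackfan genes it was 0.08. None of either list passed the test.

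In the large subunit, Rpl34 had the largest positive difference and also the widest spread. Its log2 values were 10.41, 10.87, 9.75, 9.96 and 10.76 in the ILK-deficient and 9.87, 9.58, 9.79, 10.88 and 9.85 in the ILK-expressing replicates. The highest of all 10 values belonged to an ILK-expressing mouse, replicate 4, which was far from the other 4 of its group. The difference of 0.36 had an SE of 0.279 and a 95% interval of -0.26 to 0.97 (limma adjusted p = 0.657). Rpl9 differed by 0.21 (limma adjusted p = 0.548), with values of 13.05 to 13.60 in ILK-deficient and 12.85 to 13.31 in ILK-expressing epidermis.

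Rpl5 and Rpl11 bind 5S ribosomal RNA and form the particle that restrains Mdm2, of which only Rpl5 had a probe set of its own. Its log2 values were 12.91, 13.01, 13.14, 13.18 and 13.10 in ILK-deficient and 12.87, 12.86, 12.88, 13.02 and 12.93 in ILK-expressing replicates. The lowest ILK-deficient value lay below 2 of the ILK-expressing values. The difference was 0.15 (SE 0.0660, limma adjusted p = 0.280, exact permutation p = 0.0397 before adjustment), and the 5 probe sets named Rpl5 gave 0.15 to 0.19.

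The stalk proteins, which recruit elongation factors to the large subunit, differed by less than 0.1 between the genotypes. Rplp0, the base of the stalk, had values of 13.29, 13.28, 13.45, 13.35 and 13.40 in ILK-deficient and 13.28, 13.21, 13.35, 13.38 and 13.22 in ILK-expressing epidermis, a difference of 0.06 (limma adjusted p = 0.729). Rplp1 differed by 0.00 with a 95% interval of -0.17 to 0.18, and Rplp2 by -0.03 with an interval of -0.25 to 0.19. The sign of both Rplp1 and Rplp2 turned under other settings. The 5 of 9 listed genes for proteins at the peptide exit tunnel had a median difference of 0.05 and a range of -0.10 to 0.10, and none passed the test.

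The largest negative differences in the large subunit were those of Rpl39l, Rpl14 and Rpl30. Rpl14 had values of 9.08 to 9.30 in ILK-deficient and 9.03 to 9.78 in ILK-expressing replicates, and the ILK-deficient range lay wholly inside the other. Its difference was -0.18 (SE 0.137, limma adjusted p = 0.636), and that of Rpl30 was -0.13 (SE 0.110, limma adjusted p = 0.694). In the small subunit, Rps27l, Rps4l and Rps25 came last, at -0.20, -0.16 and -0.07. Rps25, a protein needed for initiation at several viral RNAs, had an adjusted p of 0.737 by limma and overlapping groups.

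The paralogs, copies of ribosomal protein genes, had a median difference of -0.09 over the 6 of 8 listed genes with a probe set of their own. None of the 6 passed the test. Rpl32l was not in this list and differed by 0.14 (limma adjusted p = 0.219). Rps27l, a paralog of Rps27 that p53 can induce, had values of 11.18, 11.46, 11.62, 11.69 and 11.30 in ILK-deficient and 11.67, 11.51, 11.71, 11.60 and 11.78 in ILK-expressing replicates. The ILK-deficient arrays held the 3 lowest values and 1 of the 3 highest. Its difference was -0.20 (SE 0.102, 0.869-fold, limma adjusted p = 0.387). Rps4l, a pseudogene in RefSeq, differed by -0.16 (limma adjusted p = 0.495) and Rpl7l1 by -0.01.

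The other 3 paralogs lay near the level of the filter, a log2 value of 5.64. Rpl3l, known from striated muscle, had a mean of 5.70 in ILK-deficient and 5.72 in ILK-expressing epidermis, and Rpl10l, known from the testis, 5.69 and 5.66. Rpl39l, also known from the testis, had 5.74 and 5.92, with the highest value, 6.38, in ILK-expressing replicate 2. Rpl10l was at or above the filter level on 6 of 10 arrays and the others on 9 of 10, so their differences rest on dim signals.

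**Figure D2:**
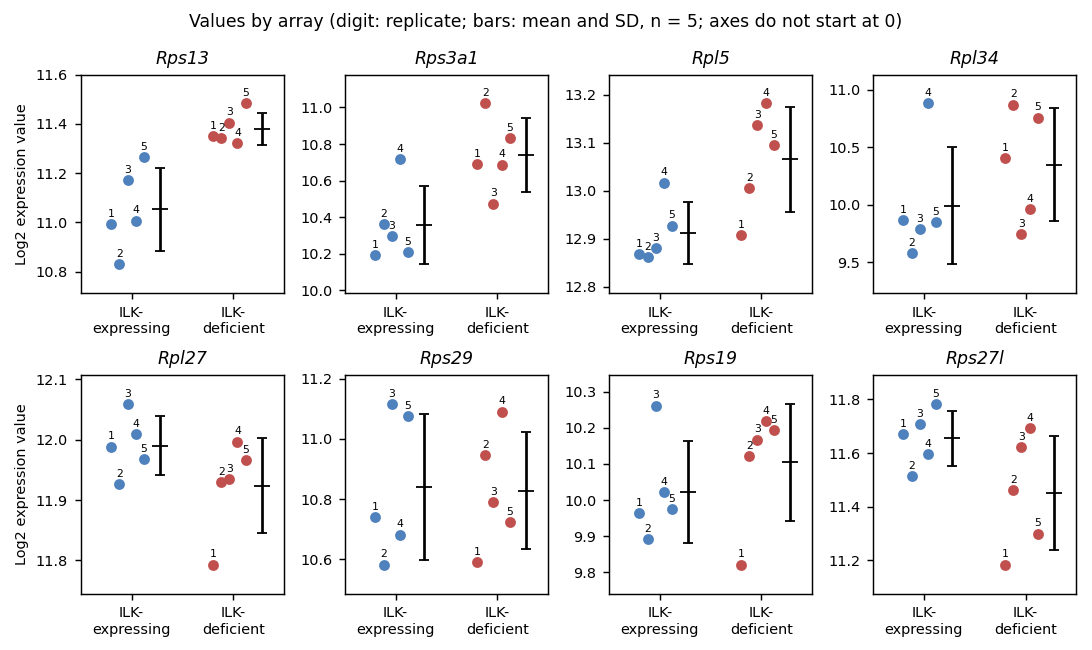
Log2 expression value (y axis, not from 0) of 8 members in each array, ILK-expressing in blue and ILK-deficient in red, with the replicate number at each point and the mean and SD of 5 arrays beside them. The groups of Rps13 did not overlap, those of the other 7 genes did, and ILK-expressing replicate 4 stood apart for Rpl34 at 10.88.

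Rpl27 and Rps29 served as the reference transcripts in the quantitative PCR of the study, which was run on other animals than the arrays. The values here are those of the array animals. Rpl27 had log2 values of 11.79, 11.93, 11.93, 12.00 and 11.97 in ILK-deficient and 11.99, 11.93, 12.06, 12.01 and 11.97 in ILK-expressing epidermis. ILK-deficient replicate 1 was the lowest of the 10, and the ILK-expressing values of 12.06 and 12.01 lay above every ILK-deficient value. The groups otherwise overlapped. The Rpl27 difference was -0.07 with a 95% interval of -0.19 to 0.06 (limma adjusted p = 0.698), or 0.955-fold. Rps29 varied more between mice, with values of 10.59, 10.95, 10.79, 11.09 and 10.72 in ILK-deficient and 10.74, 10.58, 11.12, 10.68 and 11.08 in ILK-expressing replicates. Its difference was -0.01 with an interval of -0.30 to 0.27 (limma adjusted p = 0.987), and its sign turned under 5 of 23 alternatives. Averaged over both genes, the log2 value was 11.38 ± 0.130 in the mutant and 11.41 ± 0.137 in the control arrays (SD, n = 5 each), a difference of -0.04 or 0.974-fold. Among 11 of 14 other common reference genes that were tested, Tfrc, the transferrin receptor, was lower by limma (difference -1.11, adjusted p = 0.0164; 9.14 ± 0.430 against 10.25 ± 0.279, SD, n = 5), and the other 10 did not pass.

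The probe sets of a gene gave like differences. The 60 members had 212 probe sets, of which 200 held distinct values, 38 members had more than 1, and Rps12 had the most, at 14. The range of the difference over the probe sets of a member was 0.04 at the median and at most 0.09, in Rpl7a. For 34 of these 38 members all probe sets lay on the same side of 0. Of the 212 probe sets, 0 passed the adjusted threshold, 12 had an unadjusted limma p under 0.05 (11 higher and 1 lower), and 2 did not overlap between the genotypes, both of Rps13. The 237 further probe sets that listed a ribosomal protein among several symbols had a median difference of 0.00 and a range of -0.25 to 0.34, and 0 of them passed. Ribosomal protein genes have many processed pseudogenes and close paralogs, so probe sets of the same or of different members can measure the same transcripts, and they are not independent measurements.

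**Figure D3:**
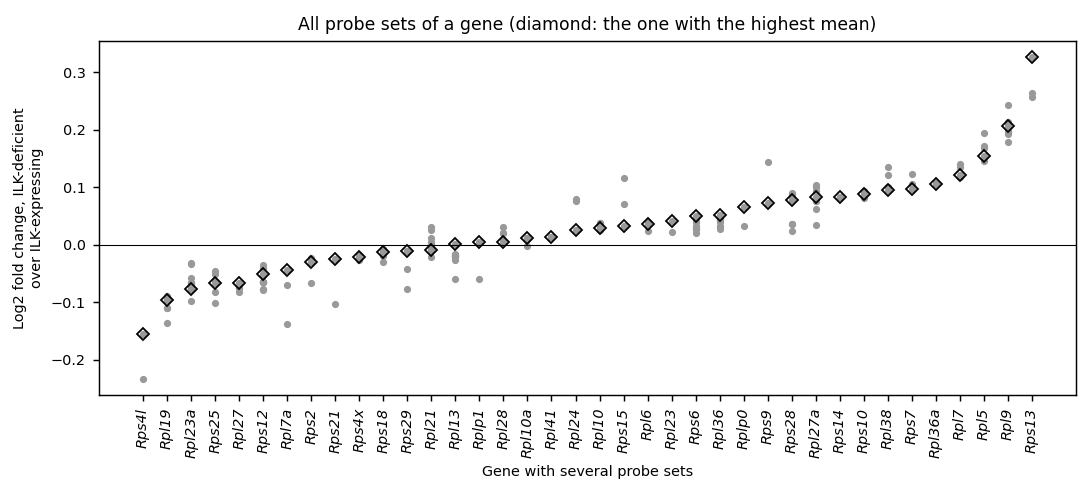
Difference between genotypes (y axis, log2 fold change of ILK-deficient over ILK-expressing) for every probe set of the 38 members with more than 1 (x axis, ordered by the probe set used), with a diamond at the probe set of highest mean. Probe sets of a gene lay within 0.09 of each other, and all 3 of Rps13 lay above 0.25.

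Members of a subunit varied together from mouse to mouse, also within a genotype. For each array, the deviation of every member from its own mean over the 10 arrays was taken, and the median over members was found. In the small subunit it was -0.16, 0.06, 0.02, 0.14 and 0.01 in ILK-deficient replicates 1 to 5 and -0.04, -0.11, 0.07, 0.02 and -0.01 in the ILK-expressing replicates. ILK-deficient replicates 1 and 4, of the same genotype, were thus the lowest and the highest of the 10 arrays. ILK-deficient replicate 1 was the lowest array for 11 of 22 small subunit genes, whereas in ILK-deficient replicate 4 all 22 lay above their own mean. In the large subunit the medians were -0.05, 0.01, 0.02, 0.04 and 0.00 in the ILK-deficient and -0.03, -0.06, 0.06, 0.02 and -0.06 in the ILK-expressing replicates. ILK-expressing replicate 2 was the lowest array for 12 of 38 large subunit genes and ILK-expressing replicate 3 the highest for 12. The SD of these medians within a genotype, pooled over both genotypes, was 0.0436 for the large and 0.0907 for the small subunit.

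Bright probe sets in general moved with the members on some arrays. The 8012 brightest probe sets by mean over the arrays had a median deviation of -0.11 in ILK-expressing replicate 2, the array in which 2 of 22 small subunit genes lay above their mean. In ILK-deficient replicate 1 the same probe sets were at -0.02, against -0.16 for the small subunit genes. The part of overall array brightness in the differences was not tested. Without ILK-deficient replicate 1 the small subunit median difference was 0.06, without ILK-deficient replicate 4 it was 0.00, and no member was called in either case.

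**Figure D4:**
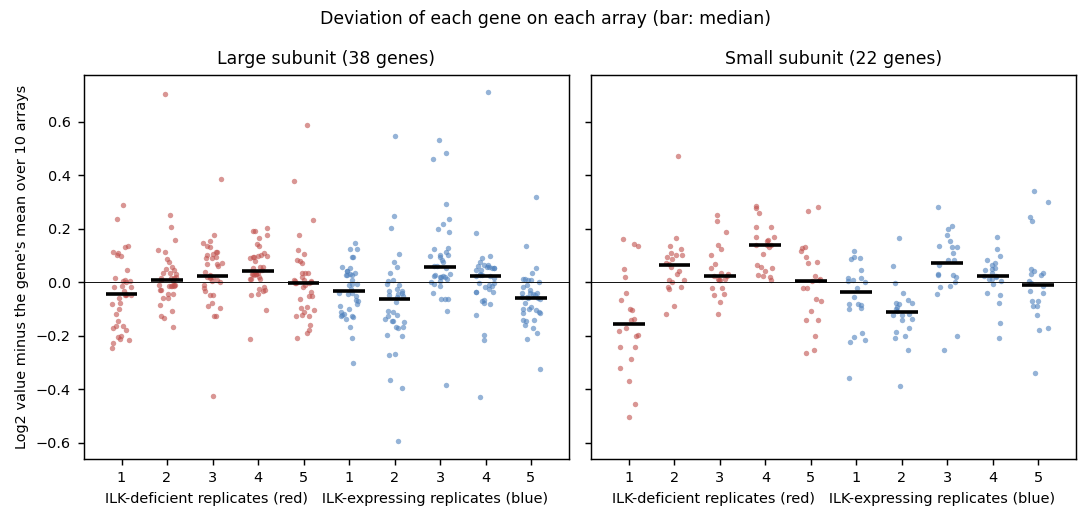
Deviation of each member from its own mean over 10 arrays (y axis, log2), by array (x axis, ILK-deficient replicates 1 to 5 in red, then ILK-expressing replicates 1 to 5 in blue), for the large and small subunit; bars mark medians. In the small subunit, ILK-deficient replicate 1 had the lowest median, -0.16, and ILK-deficient replicate 4 the highest, 0.14.

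The 38 members with a tract anywhere in the searched bases had a median difference of 0.02 (range -0.20 to 0.36). For the 10 with an entry and no tract it was 0.04 (range -0.02 to 0.39). Rps3a1 and Rps13, the 2 largest differences of the small subunit, were among the 10. Rpl34, the largest of the large subunit, was among the 38 with a tract. No difference between these groups was tested. With the CGGAAG letters the median was 0.03 over 32 members, and without them 0.02 over 16.

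Ribosomal proteins whose names fall outside the rule did not pass the test either. Rpsa, the laminin receptor and small subunit protein, differed by 0.18 (limma adjusted p = 0.257), and Fau, which is made as a ubiquitin-like fusion to a small subunit protein, by 0.02 (limma adjusted p = 0.958). Rpl36al and Rack1 had no probe set of their own.

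Other genes of ribosome production and use were counted from lists chosen for this comparison. None of the 77 mitochondrial ribosomal protein genes, which serve translation inside mitochondria, passed the test. Their median difference was -0.12, 17 of the 77 were above 0 and 60 below, and 10 had an unadjusted limma p under 0.05, all lower. Over all probe sets tested, 51.0% were above 0, and 5.65% were lower and 10.2% higher at that unadjusted p. The widest of these differences was that of Mrps21 at -0.51 (limma adjusted p = 0.250), followed by Mrps18b at -0.36 (adjusted p = 0.326). Of 70 ribosome assembly genes tested, 0 were higher and 1 was lower, Taf1d, a subunit of the selectivity factor of RNA polymerase I (-0.52, limma adjusted p = 0.0432), and the list median was -0.11. At an unadjusted limma p under 0.05, 24 of these 70 genes were lower and 0 higher, 56 were below 0, and 8 lay wholly below the ILK-expressing values without overlap. The share lying wholly below was 1.96% over all probe sets tested.

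Among 31 initiation factors, 0 were higher and 1 was lower, Eif2b3, a subunit of the exchange factor for eIF2 (-0.44, limma adjusted p = 0.0430; 9.70 to 10.14 in ILK-deficient and 10.16 to 10.54 in ILK-expressing epidermis), and the median was -0.11. At an unadjusted p under 0.05, 9 of the 31 were lower and 0 higher. Of 8 genes listed as elongation and termination factors, Gspt1, a release factor GTPase, was lower (-0.29, limma adjusted p = 0.0328) and none was higher. The list median was -0.23, with 5 of the 8, Eef1e1 among them, lower and 0 higher at an unadjusted limma p under 0.05. Eef1a1, Eef1b2 and Eef2 lay above 0, at 0.03, 0.02 and 0.01. Among 34 genes of mTORC1 and TOP mRNA control, Pdcd4, an inhibitor of the helicase eIF4A, was lower (-0.44, limma adjusted p = 0.00998). Its values were 11.96 ± 0.0966 in ILK-deficient against 12.39 ± 0.110 in ILK-expressing epidermis (SD, n = 5). None of the 34 was higher, and the median was -0.03, where an unadjusted p under 0.05 was found for 5 lower and 2 higher genes. None of the 11 listed genes of the Myc network passed the test, and the list was not split by the direction in which they act. Mycn had the widest difference at 0.73 (limma adjusted p = 0.190), before Mga at 0.43 (adjusted p = 0.0875), and Myc itself differed by -0.11. At an unadjusted limma p under 0.05, 4 of the 11 were higher (Mxd4, Mga, Mycn and Mnt) and 1 was lower (Mlx).

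Of 19 genes tested in a list of p53 targets and Kitl, the gene of Kit ligand, 2 were higher and 0 lower, namely Kitl and 1 p53 target, Fas. Kitl had log2 values of 10.23, 10.20, 10.03, 10.40 and 10.36 in ILK-deficient and 9.61, 9.62, 9.48, 8.81 and 9.76 in ILK-expressing replicates. The genotypes did not overlap, and the difference was 0.79 (SE 0.162, limma adjusted p = 0.0261). Fas, a death receptor, differed by 0.27 (limma adjusted p = 0.0432), the list median was 0.09, and the list includes Rps27l, which did not pass. At an unadjusted p under 0.05, 8 of the 19 were higher and 2 lower. The calls of Gspt1, Eif2b3, Taf1d, Fas and Kitl were lost in 7 to 14 of 23 alternatives. No difference between any of these lists and the ribosomal protein genes was tested.

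**Figure D5:**
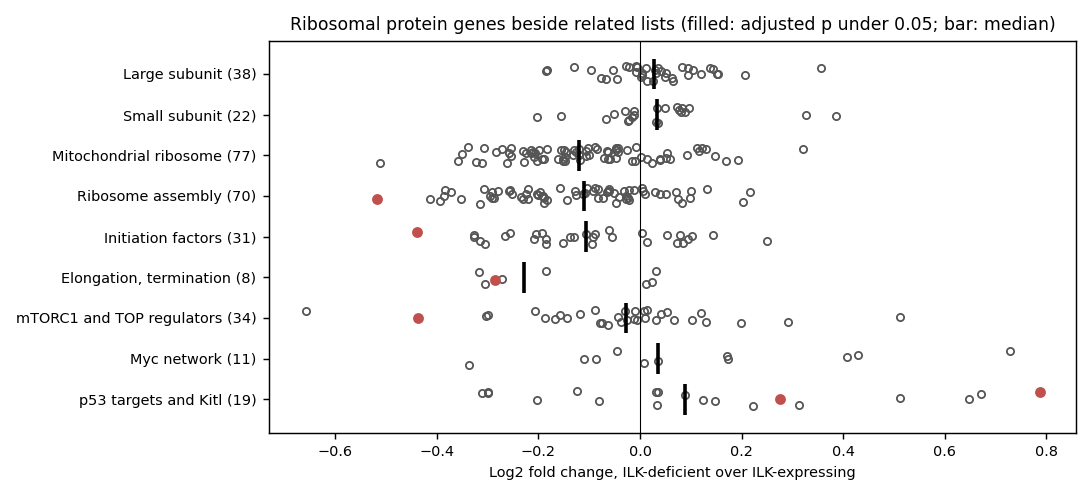
Difference between genotypes (x axis, log2 fold change of ILK-deficient over ILK-expressing) of the tested genes in each list (rows, with their number), filled where the limma adjusted p was under 0.05, with bars at medians. No large or small subunit gene was filled, their medians were 0.03 and 0.03, and that of the mitochondrial ribosome was -0.12.

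Markers of several cell types differed between the genotypes in the same arrays. All 10 keratinocyte markers were measured, with 1 higher and 1 lower by limma. For these calls, the shares over all probe sets tested were 2.81% higher and 0.970% lower. The summed level of a list is the log2 of its genes' added linear values, in which the brightest genes weigh most. For the keratinocyte markers it was 16.45 to 16.51 in ILK-deficient and 16.50 to 16.63 in ILK-expressing arrays. Of 8 melanocyte markers 5 were higher (summed level 12.90 to 13.77 against 11.26 to 12.32), and of 9 markers of hair shaft and sheath 7 were lower (10.86 to 12.07 against 13.76 to 15.89). The summed level was 11.83 to 12.73 against 10.64 to 12.44 for 7 fibroblast markers (0 called), 12.25 to 12.75 against 12.20 to 13.01 for 8 immune markers (1 higher), and 8.19 to 8.37 against 8.22 to 8.34 for 5 endothelial markers (0 called). Adipocyte and muscle markers had 0 calls among 4 tested genes each. The part of these cell types in the ribosomal protein values was not tested. Ilk itself had values of 8.75, 8.99, 9.07, 8.97 and 8.92 in ILK-deficient and 9.02, 9.01, 9.35, 9.08 and 9.38 in ILK-expressing replicates (limma difference -0.23, adjusted p = 0.253). The floxed part does not cover the whole transcript, and the position of the probes of this set is not given in the sources used here. The value of the whole set is thus a weak check of the labels. By single exons, the study reported substantially lower array signal within the floxed part in ILK-deficient epidermis. It also reported reduced ILK protein there.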

How the data were processed

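Total RNA of 10 epidermal samples was hybridised as biotin-labelled cDNA to 1 array per mouse. The deposited table holds log2 values that the authors made by background adjustment, quantile normalization and summary over probes. GC-RMA, RMA and Partek are named as tools, and which of them made the table is not given in the sources used here, nor is a genome build. Genes were named from the platform annotation. Values were analysed as deposited, with limma 3.58.1 in R 4.3.3 (lmFit and eBayes, no covariates, 5 against 5 arrays), after a filter of a linear value of 50 on at least 5 arrays, with Benjamini-Hochberg adjustment over 32046 of 35556 probe sets. Single genes also had a two-sided exact permutation test over all even splits of the arrays. The number of arrays limits the precision.

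Members, lists and tests were chosen with earlier results of these data known. The genes named were Rpl27 and Rps29, the 3 largest differences in each direction per subunit, proteins with a known role in the stalk, the 5S particle, p53 or skin pigment, the paralogs, genes with an array far from its group, and per list at most 3 genes past the test or the 2 largest differences. The replicate numbers of the labels were checked for pairing over all probe sets. Correlations of same-numbered arrays were -0.0231, -0.296, -0.179, -0.110 and 0.113, so they were not used as pairs. The 23 alternatives covered filter, scaling, test, blocks (replicate number, and the unexplained letter in each sample's description), probe set per gene and each array left out. Only the limma test was checked on simulated data, with 5 against 5 arrays. There it recovered 16% of 1.2-fold, 64% of 1.5-fold and 82% of 2-fold changes. The simulation covered all probe sets tested and changed 200 of them, whereas 1211 passed in the data. It was not run for the ribosomal protein genes alone. Their SD within a genotype was 0.103 at the median, against 0.156 over all probe sets tested. The shares recovered thus do not tell which changes could be detected in these genes.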

Additional observations from a re-analysis of the deposited data

Results flagged for a closer look

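Among the 60 ribosomal protein genes, 7 of 120 groups of 5 arrays had 1 array far from the other 4 by Dixon's ratio, the gap to the nearest value over the whole range, with 0.71 as the critical value; chance gives about 6. Of the 7, 4 were low values of ILK-deficient replicate 1. Rps14 was at 11.20 there against 11.75 to 11.88 in the other ILK-deficient arrays (ratio 0.807), Rps7 at 12.58 against 12.82 to 12.88 (ratio 0.786), Rps19 at 9.82 against 10.12 to 10.22 (ratio 0.757), and Rpl37a at 11.88 against 12.10 to 12.17 (ratio 0.738). ILK-expressing replicate 3 was high for Rps28, at 12.38 against 12.14 to 12.19 (ratio 0.785), and for Rpl13, at 10.93 against 10.47 to 10.60 (ratio 0.712). ILK-expressing replicate 4 was high for Rpl34, at 10.88 against 9.58 to 9.87 (ratio 0.776). Without these arrays no member was called, since leaving out ILK-deficient replicate 1 or ILK-expressing replicate 3 or 4 gave 0 calls.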

How the results depend on the processing

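No large subunit member and no lower small subunit member was called under any of the 23 alternatives. The count of higher small subunit members became 1, always Rps13, in 6 of them. These were arrays centred on the mean of the brightest of all 35556 probe sets, taken before the filter (adjusted p = 0.0413, limma), quantile normalization again (0.0209) and array weights (0.0264). The others were the description letter as a block (0.0420), probe sets averaged per gene (0.0435) and the data without ILK-expressing replicate 5 (0.0308). The count was 0 to 1 over the arrays left out in turn. The cause was not tested. Mitochondrial ribosomal protein genes called were 1, 2 and 1 under centring on bright probe sets, quantile normalization again and gene means, and 0 otherwise. The count of all probe sets called, 1211 as reported, was 780 by the methods' analysis of variance at an unadjusted p and 1.5-fold, 686 after Benjamini-Hochberg adjustment of it, 608 with the replicate block, which called no member, and 597 (without ILK-deficient replicate 5) to 1010 with an array left out, also lower by over 1.5 times without ILK-deficient replicate 1 (723) or 2 (756) or ILK-expressing replicate 2 (797) or 4 (651). No same-numbered arrays correlated best with each other. The subunit medians stayed within 1 SD of the array medians, and with an array left out ran from 0.01 to 0.06 (large) and from -0.00216 to 0.06 (small).

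Signs turned only for differences that were never called, apart from Taf1d, which was 0.15 with the probe set of lowest mean. With median centring Rplp1 was -0.0188, Rpl13 -0.0219 and Fau -0.00659. With centring on bright probe sets they were -0.0163, -0.0194 and -0.00412. Quantile normalization again gave Rplp1 -0.00180. Array weights gave Rplp1 -0.0509, Rpl3l 0.0188, Rpl10l -0.00552, Rpl37a 0.00134 and Fau -0.00314. The letter block gave Rps29 0.0416, Rplp1 -0.0267, Rpl10l -0.00805, Rpl13 -0.0145 and Rpl37a 0.0261. Gene means gave Rplp1 -0.0278 and Rpl13 -0.0220, and the probe set of lowest mean Rplp1 -0.0599, Rpl13 -0.0596 and Rpsa -0.0693. With an array left out, Rps29 ran from -0.0770 to 0.0580, Rplp1 from -0.0294 to 0.0412, Rplp2 from -0.0790 to 0.0302, Rpl3l from -0.0511 to 0.0270, Rpl7l1 from -0.0456 to 0.0138, Rpl13 from -0.0499 to 0.0741, Rpl37a from -0.0496 to 0.0436 and Fau from -0.0181 to 0.0433. Of the genes outside the ribosome, Pdcd4 and Tfrc lost their call in 1 alternative each, Kitl in 7, Gspt1 in 11, Taf1d in 13, Eif2b3 in 13 and Fas in 14. With 5 arrays a genotype and no counts, precision is limited by the spread between mice, and Rpl3l, Rpl10l and Rpl39l lie near background.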
